A study of Mus musculus with 33 samples.

Results

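miR-122 was followed through the lungs of a carbon black exposure study as 1 of 650 miRNAs on the array, 611 of them of mouse. It was chosen by its name on the array, mmu-miR-122, with both of its probes, because it is a liver miRNA whose signal had a wide spread between these lungs. That spread is therefore given as a description, with no test. Each array measured miRNA of the lung of 1 female C57BL/6 mouse, an inbred strain. Exposed mice had received 0.162 mg of Printex 90, a carbon black of nanosized particles, in vehicle by instillation into the trachea. Control mice had received the vehicle, 0.9% NaCl in MilliQ water with 10% acellular bronchoalveolar lavage fluid, so both groups went through an instillation. The exposed groups held 6, 4 and 5 lungs and the control groups 6, 6 and 6 lungs on days 1, 3 and 28 after instillation, 33 arrays in all. The series design speaks of RNA from individual mice, so each array was taken as a separate animal. Animal ages were not given in the sources used here.

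miR-122 is the characteristic miRNA of hepatocytes, where it makes up a large part of all miRNA and acts in cholesterol and fatty acid metabolism. It is released into blood plasma when the liver is injured and is widely used as a plasma marker of liver damage. Its array name matched the miRNA gene Mir122 in the RefSeq table of the mouse assembly GRCm38.p6. The lung itself was checked with miRNAs of lung cells. Endothelial miR-126-3p, which acts in vessel integrity, was above background on 33 of 33 arrays. The other member of the endothelial list, miR-126-5p, was above background on 23. All 6 members of the epithelial list were above background on 33 arrays, among them miR-200b and miR-200a, which maintain epithelial identity.

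The miRNAs whose signals ran most like that of miR-122 over the arrays, described further on, are shown here with their sequences. They were not compared with the sequence of miR-122, and whether any binds its probes was not tested. The mature sequences are from RefSeq (GRCm38.p6), with the seed, bases 2 to 8, in capitals. All 6 matched an entry, the older star names by their arm, and the 6 seeds were all different from each other. The sequence of miR-192 lies at chr19:6264857-6264877 on the plus strand of that build.
miR-192: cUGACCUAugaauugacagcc
miR-29b*: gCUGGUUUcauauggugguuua
miR-22: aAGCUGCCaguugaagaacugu
miR-33: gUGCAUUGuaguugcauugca
miR-29c*: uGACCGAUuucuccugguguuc
miR-30c-2*: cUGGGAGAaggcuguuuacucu

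The array carried 2 probes for miR-122, A_54_P2400 and A_54_P2401, with 10 spots each. A_54_P2401 was the brighter and gave the values below unless the other is named. A signal is the mean spot brightness, scaled so that the 75th percentile over probes detected on all arrays was equal between arrays, set to at least 1 unit, and taken to log2. An array counted as above background when most unflagged spots of either probe were well above background by the scanner software. miR-122 was above background on 21 of 33 arrays, on 9 of 15 exposed and 12 of 18 control arrays. By group this was 4 of 6 exposed and 3 of 6 control lungs at day 1, 2 of 4 exposed and 4 of 6 control lungs at day 3, and 3 of 5 exposed and 5 of 6 control lungs at day 28. The flag is set before scaling and so depends on how bright an array is. The 75th percentile before scaling ran from 187 to 1211 units. The scaled signal at which a probe could count as above background ran from 5.76 to 36.7 units. Brightness also differed between groups. The median 75th percentile was 666.3 units in exposed and 365 in control lungs at day 1, and 481 and 985.4 at day 28. At day 3 it was 624.8 in exposed and 634.6 in control lungs. The counts by group are therefore not read as differences in miR-122 between groups. Control replicate 27 of day 1, on the dimmest array, was not above background at a log2 signal of 5.14, while control replicate 32 of day 28, on the brightest, was above it at 3.52.

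On day 1 the 6 exposed lungs had log2 signals of 5.91, 2.10, 5.27, 6.39, 4.04 and 3.21. The 6 control lungs of that day had 6.86, 0, 6.99, 0.51, 4.79 and 5.14. The groups overlapped fully, and the control lungs held both the highest and the lowest signals of the day. On day 3 the 4 exposed lungs had 4.74, 6.51, 1.52 and 3.12. The 6 control lungs had 7.16, 0, 5.10, 0, 4.95 and 4.35. The 2 control lungs at 0 stood at the floor of the scale, and again every exposed lung lay within the range of the controls. On day 28 the 5 exposed lungs had 3.59, 4.27, 7.18, 3.90 and 2.53. The 6 control lungs had 4.05, 4.18, 4.89, 2.85, 4.59 and 3.52. Of the exposed lungs of day 28, 1 lay above and 1 below all 6 controls.

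**Figure D1:**
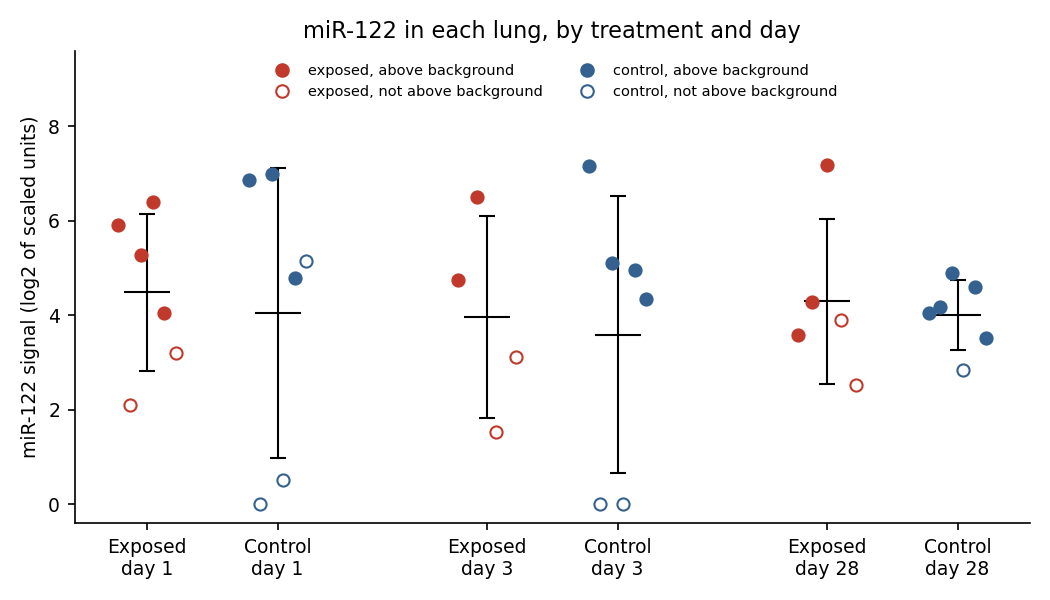
The signal of miR-122 (log2 of scaled units) is plotted for each of 33 lungs, by treatment and day, filled where above background and open where not, with bars for mean and SD. Exposed and control lungs overlap on each day, and the controls of day 28 have the narrowest spread (SD 0.74).

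The group means lay close together and the spread within groups was wide. They were 4.49 ± 1.66 in exposed and 4.05 ± 3.07 in control lungs at day 1 (SD, n = 6 each). At day 3 they were 3.97 ± 2.14 in exposed (SD, n = 4) and 3.59 ± 2.94 in control lungs (SD, n = 6). At day 28 they were 4.29 ± 1.74 in exposed (SD, n = 5) and 4.01 ± 0.74 in control lungs (SD, n = 6). From high to low the order was exposed day 1, exposed day 28, control day 1, control day 28, exposed day 3 and control day 3. Every step between neighbours in this order was smaller than the SD of either group.

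Over all 33 lungs the SD of miR-122 was 2.06 on the log2 scale, the first of 171 tested miRNAs, whose median SD was 0.31. The next was miR-139-3p, at 1.87. No tested miRNA lay above miR-122. The SD depended on the scale of low values. It was 1.30, the third highest, when the floor was 10 units, and 0.49, the sixth highest, in the values deposited by the authors. With normexp background correction it was 0.73, also the third highest. It was second to miR-139-3p under scaling by a percentile of all probes (2.035) and with the mean over probes (1.963). Among the 21 arrays above background alone, log2 signals ran from 3.52 to 7.18, a 12.6-fold range. The highest were exposed replicate 20 of day 28 at 7.18, control replicate 2 of day 3 at 7.16, and control replicates 13 and 1 of day 1 at 6.99 and 6.86.

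The spots of 1 array give the technical error of each signal, which says nothing of the spread between animals. On arrays above background the coefficient of variation over the spots of the brighter probe had a median of 9.11% and a highest value of 14.4%, over 6 to 10 unflagged spots. Exposed replicate 20 of day 28, for example, had an unscaled signal of 104 ± 8.39 units over 9 spots (SD). The dimmer probe, above background on 16 arrays, ordered the arrays alike. On the 21 arrays the 2 probes correlated at r = 0.991 across arrays, and the brighter probe exceeded the dimmer by 0.73 to 1.33 on the log2 scale. Both probes see the same RNA on the same array, so they are not separate animals.

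**Figure D2:**
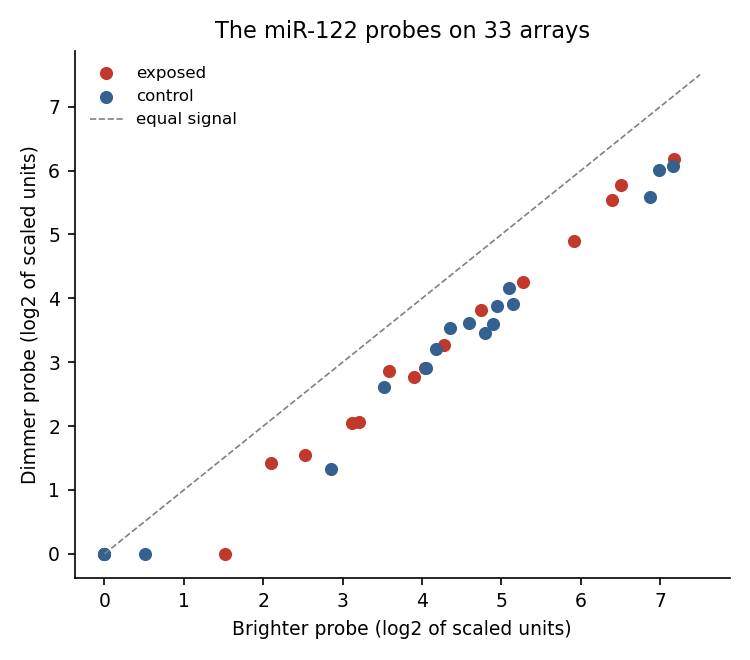
The dimmer probe of miR-122 is plotted against the brighter one on 33 arrays (both axes log2 of scaled units), with a dashed line at equal signal. Above a brighter-probe signal of about 2 the points run nearly parallel to that line, and 3 arrays lie at the floor of 0 for both probes.

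Whether carbon black changed miR-122 was tested at each day with limma, fitted over 171 miRNAs and adjusted by the Benjamini-Hochberg method. The log2 change of exposed over control lungs was 0.44 at day 1, with a standard error of 1.21 and a 95% interval of -2.03 to 2.91 (limma adjusted p = 0.863). At day 3 it was 0.38, with a standard error of 1.35 and an interval of -2.38 to 3.14 (limma adjusted p = 0.996). At day 28 it was 0.28, with a standard error of 1.27 and an interval of -2.31 to 2.87 (limma adjusted p = 0.986). No change was detectable at this precision, and on this scale the intervals allow several-fold changes in either direction. The standard errors depended on the scale of low values. At days 1, 3 and 28 they were 0.75, 0.84 and 0.79 with a floor of 10. With normexp they were 0.38, 0.42 and 0.39, and in the values deposited by the authors 0.29, 0.32 and 0.30. The SD of miR-122 over all lungs was also smaller in these settings. Exact two-sided permutation tests of the differences on the main scale gave p = 0.753, 0.867 and 0.762, each 0.867 when adjusted over the 3 days. In these comparisons limma called 0 of 171 miRNAs at each day (0%), with 15, 2 and 13 miRNAs at an unadjusted p under 0.05 (8.77%, 1.17% and 7.6%). The direction of the change at day 3 turned under 7 of 18 other settings, and that of day 1 and day 28 under 3 and 2 of 18. Some of these settings cannot move the estimate, among them the exact permutation test and other sets of tested miRNAs. The counts thus do not measure how stable the direction is.

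The changes also did not differ detectably between days. The change at day 3 minus that at day 1 was -0.06 (limma adjusted p = 0.996), at day 28 minus day 1 it was -0.16 (adjusted p = 0.977), and at day 28 minus day 3 it was -0.10 (adjusted p = 0.999). Limma called 0% of miRNAs in each of these, with 4, 12 and 3 at an unadjusted p under 0.05 (2.34%, 7.02% and 1.75%). Between vehicle lungs, miR-122 was at -0.46 at day 3 over day 1 (standard error 1.21, limma adjusted p = 0.928), where 0% of miRNAs were called and 8 had an unadjusted p under 0.05 (4.68%). At day 28 over day 1 it was at -0.036 (standard error 1.21, adjusted p = 0.991), where limma called 11 of 171 miRNAs (6.43%) and 41 had an unadjusted p under 0.05 (24%). Under normexp background correction this last difference was -1.004 (limma adjusted p = 0.0168), with a median of -0.63 over all tested miRNAs. Its unadjusted limma p was 0.0115, so the adjustment raised it only a little. With the Benjamini-Hochberg method this happens only where most of the 171 miRNAs are past the threshold too. The exact share was not counted, and this value is not read as particular to miR-122. The residual SD of miR-122 in the fit, shared by all groups, was 2.22, while group SDs ran from 0.74 (control day 28) to 3.07 (control day 1). The standard errors at day 28 thus also carry the wider spread of the controls of days 1 and 3.

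The arrays lay on 9 slides, and each exposed array shared its slide with 1 control of the same day. Exposed exceeded control in 2 of 6 such pairs at day 1, by -1.94 to 5.88 on the log2 scale. This held for 1 of 4 pairs at day 3, by -3.58 to 6.51, and for 3 of 5 pairs at day 28, by -2.06 to 2.29. The largest of these differences were those of slide 3 at day 3 and slide 5 at day 1, in each of which the control lay at or near the floor. Exact sign-flip permutation tests over pairs gave p = 0.813, 1 and 0.813, where the smallest p the designs allow is 0.0313, 0.125 and 0.0625. On each slide the controls and the exposed lungs were hybridised at separate positions, so exposure and position on the slide cannot be told apart.

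Slides differed in how often miR-122 was seen. It was above background on 4 of 4 arrays of slide 1, which held exposed and control lungs of days 1 and 3 at log2 signals of 4.74 to 7.16, and on 0 of 3 arrays of slide 6, at 0 to 3.90. All 3 arrays of slide 7 were above background, with signals within 0.91 of each other. The lowest signals of slides 3 and 5, 0 and 0.51, were not above background, so the ranges of those slides depend on the floor. Without slide 1, a setting chosen after seeing the data, the exposure changes were 0.72, 0.83 and 0.28 at days 1, 3 and 28 (limma adjusted p = 0.874, 0.972 and 0.96).

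**Figure D3:**
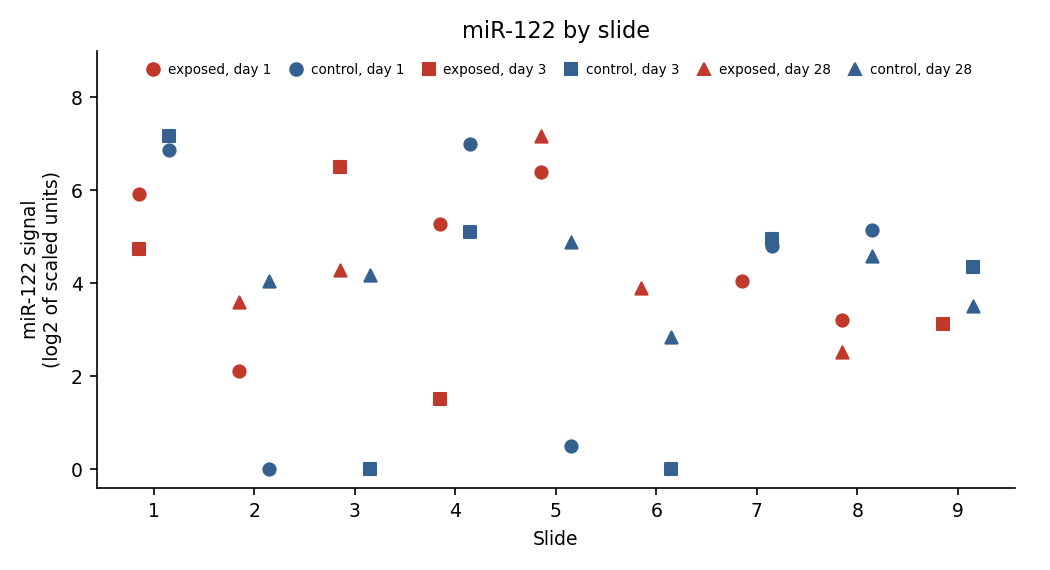
The miR-122 signal (log2 of scaled units) is plotted for each array by slide, exposed lungs left of controls, with a marker shape for each day. The 4 arrays of slide 1 lie at 4.74 to 7.16, while slides 3 and 5 hold both high and near-floor lungs.

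The signal was also set against how bright each array was. Its correlation over 33 arrays with log2 brightness was r = -0.35 (permutation p = 0.0463) and rho = -0.38 (permutation p = 0.0305), and r = -0.29 without the 2 arrays of most extreme brightness. With the number of mouse miRNAs above background it was r = -0.24 (permutation p = 0.178) and rho = -0.34 (permutation p = 0.0511). After Benjamini-Hochberg adjustment over these 4 tests the 3 smallest p became 0.0681, so none passed. On the days of scanning with at least 6 arrays, r with brightness was -0.23, -0.19, -0.50 and -0.45 (8, 8, 6 and 7 arrays), and the remaining day held 4 arrays. The scaled signal is divided by brightness, so the measures share that term. The unscaled signal, taken without log2, gave r = -0.12 with log2 brightness. Its scale differs, so it does not show what the shared term adds.

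miR-192 was the tested miRNA most like miR-122. It is abundant in liver, and also in intestine and kidney, and is known as a p53-responsive miRNA. Its log2 signal correlated with that of miR-122 at r = 0.64 and rho = 0.65 over 33 arrays, the highest r of 170 miRNAs, and at r = 0.72 after group means were subtracted, again the highest. It was picked as the highest, so no p is given, and arrays share scaling and slide. On the 21 arrays with miR-122 above background r was 0.92 (rho = 0.88), as a description of arrays selected by the level of miR-122 itself. On the other 12 arrays r was -0.39 (rho = -0.35). Their miR-122 signals were not above background, so no relation is read from them, though they enter the r over 33 arrays. On unlogged signals over 33 arrays r was 0.91. It was 0.84 among 15 exposed and 0.54 among 18 control lungs on the log2 scale, and 0.69 without the 2 arrays farthest from the median of miR-122.

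The same lungs headed both orders. Of the 8 lungs with the highest miR-122 signals, 7 were among the 8 with the highest miR-192. Control replicate 2 of day 3 had the highest miR-192 log2 signal, 5.46, and exposed replicate 20 of day 28 the second, 5.44. The next, at 5.397 and 5.35, were control replicates 1 and 13 of day 1. Over all arrays miR-192 ran only from 4.41 to 5.46, with an SD of 0.30, and was above background on 32 of 33, so it varied far less than miR-122 on the log2 scale.

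**Figure D4:**
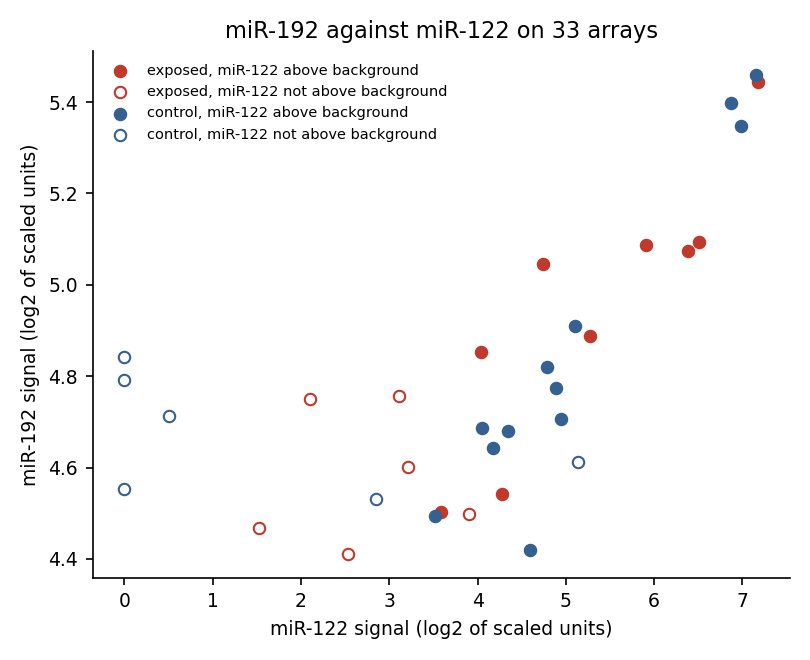
miR-192 is plotted against miR-122 on 33 arrays (both axes log2 of scaled units), exposed and control lungs in different colours, filled where miR-122 was above background. The 4 lungs with the highest miR-122 are also the 4 with the highest miR-192. The miR-122 levels of open points are uncertain, as they were not above background.

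The likeness was not equal in all batches of arrays. On days of scanning with at least 6 arrays, log2 signals gave r = 0.31, 0.85, -0.029 and 0.10 (8, 8, 6 and 7 arrays), and unlogged signals 0.76, 0.98, 0.21 and 0.043. In the first 2 of these the highest miR-122 was 6.51 and 7.18, and in the other 2 it was 4.95 and 5.14. The relation thus did not hold within every day of scanning. Without slide 1 miR-192 was still the most alike of 170, at r = 0.54. It was also first under normexp (r = 0.88), quantile normalization (0.58), a floor of 10 (0.85), the series value table (0.61) and the dimmer probe (0.70). The same held with the mean over probes (0.58) and scaling by a percentile of all probes (0.40). Without scaling miR-192 was still first, but r was only 0.22. Scaling divides both signals by the same brightness, and miR-192 correlated with log2 brightness at r = -0.37. Normexp also added 50 units to each spot before scaling, a term that dim miRNAs share. What these shared terms add to r was not tested. With the total gene signal miR-192 ranked 32 at r = 0.13 and rho = 0.56. There 1 array had miR-192 at the floor of 0, where the next lowest was 3.93.

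After miR-192 the most alike were miR-29b* at r = 0.53, miR-22 at 0.49, miR-33 at 0.45 and miR-29c* at 0.42. After group means were subtracted miR-29b* was at 0.60, miR-22 at 0.60, miR-30c-2* at 0.55 and miR-33 at 0.53. miR-22 is expressed in many tissues, liver and heart among them, and was above background on 33 arrays at log2 signals of 10.8 to 11.8. miR-33 lies in an intron of Srebf2, a regulator of cholesterol synthesis, and acts in cholesterol export. It ran from 3.95 to 5.25 and was above background on 31 arrays. miR-29b*, the passenger strand of a miR-29b precursor, was above background on 15 arrays. Each of these 5 had an SD of 0.18 to 0.34.

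The list of liver miRNAs held 7 names, all on the array, of which 5 were tested. miR-148a, abundant in hepatocytes and a regulator of the LDL receptor, had log2 signals of 6.07 to 7.29 and r = 0.25 with miR-122. miR-193 had 5.83 to 7.40 (r = 0.29) and miR-365 6.35 to 7.09 (r = 0.041). These 3 were above background on 33 arrays, including those where miR-122 was not. miR-194, whose gene Mir194-2 lies next to Mir192 in the RefSeq table, was above background on 5 arrays, between 0 and 3.15 (r = -0.25). miR-802, found in liver and pancreas, was above background on no array, with a highest log2 signal of 0.60.

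**Figure D5:**
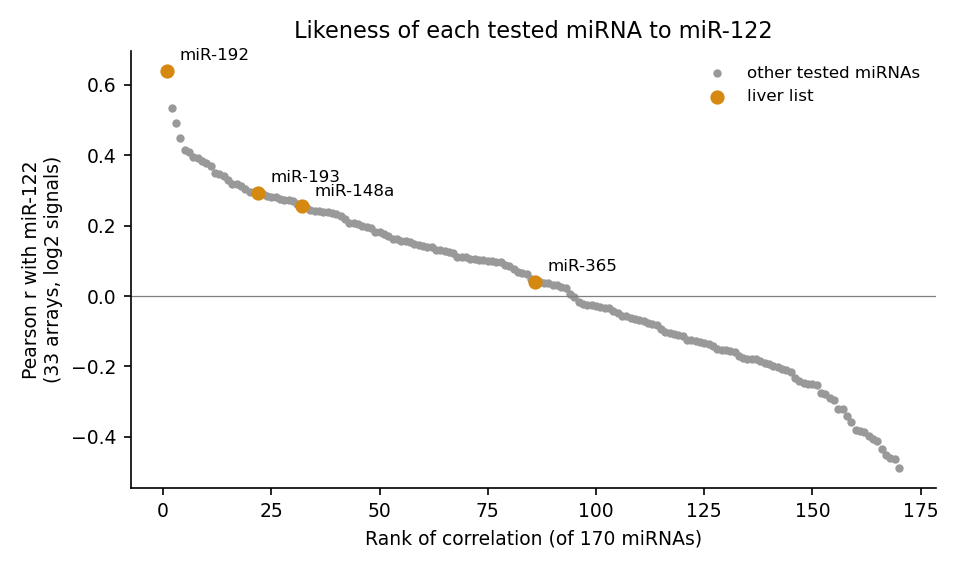
Each of 170 tested miRNAs is plotted by the rank of its Pearson r with miR-122 over 33 arrays of log2 signals, with 4 members of the liver list marked. miR-192 stands first at 0.64, and miR-365 lies near 0.

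Summed over the 7 liver names, miR-122 included, scaled signals had a median of 379 units in exposed lungs (302 to 424) and 390 in control lungs (307 to 522) at day 1. They had 380 in exposed (341 to 430) and 373 in control lungs (312 to 574) at day 3, and 293 in exposed (286 to 560) and 319 in control lungs (303 to 336) at day 28. Of the 5 tested, limma called 0 at each day, against 0% of all tested miRNAs. Their median log2 changes were -0.0016, -0.0094 and 0.089 at days 1, 3 and 28, beside -0.094, -0.036 and -0.035 over all tested miRNAs. The change of miR-192 was -0.079 ± 0.17, -0.0094 ± 0.19 and 0.089 ± 0.18 (SE, limma adjusted p = 0.818, 0.996 and 0.986). The part of liver RNA, of plasma or of any lung cell in the miR-122 signal was not tested. In whole lung, more cells of a type and more RNA per cell cannot be told apart.

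Markers of other tissues were set beside miR-122 as sums of the scaled signals of each list. The correlation of the log2 sum with miR-122 over 33 arrays was r = -0.051 for heart and skeletal muscle, where miR-1 and miR-133b, both of striated muscle, reached log2 signals of 9.51 and 7.60. Of its 7 members 4 were above background on no array. It was r = 0.38 for red blood cells, with miR-451 and miR-144, which act in red cell maturation, at 11.4 to 13.6 and 7.14 to 9.04. It was -0.092 for myeloid cells (miR-142-3p at 8.12 to 10.68, miR-223 at 7.68 to 9.76). Squamous epithelium gave -0.40 (miR-203 above background on 8 of 33 arrays at up to 3.44, miR-205 on no array). The sum of that list was only 2 to 12.5 units, near the floor, so no relation is read from it. Pancreas gave -0.20 (miR-375 above background on 19 arrays at up to 4.87, the other 3 on no array). Brain gave 0.059 (miR-128 above background on 6 arrays at up to 3.72, the other 2 on no array). Lung endothelium gave -0.027 (miR-126-3p at 12.0 to 13.0, miR-126-5p at 1.09 to 4.84). Lung epithelium gave -0.093 (miR-200b at 8.10 to 9.00, miR-200a at 8.10 to 8.90). For the 6 liver names other than miR-122 it was 0.38.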

How the data were processed

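Lung RNA that kept its small RNA carried the Cy3 dye on one-colour Agilent arrays, per the labels' protocols. Spot intensity on a linear scale came from Feature Extraction 10.7.3.1, per the file headers. From the values, the processed signal has background subtracted, since it lies below the raw median signal and reaches below 0, and arrays were not brought to equal brightness. The authors' deposited series table holds log2 values whose normalization was not given in the sources used here. Its columns correlated at 0.985 to 0.993 with log2 median signals of the same arrays, with medians of 5.41 to 5.43, so scale and direction were read from that, its centring is unknown, and it served as an alternative only.

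Control spots and flagged spots (2.32%) were left out, and no spot was saturated. Signals were scaled by the 75th percentile over 156 probes detected on all arrays, and a miRNA was represented by its brightest probe. A miRNA was tested when above background on at least 4 arrays of a group (171 miRNAs, miR-122 among them). All 33 arrays were fitted together, 1 mean for each of 6 groups, with limma 3.58.1 under R 4.3.3, with an intensity trend, two-sided, at a threshold of 0.05. The fit was tested on simulated data, normal values with 1 SD per miRNA and no floor or slide effect. Those data lack the floor values and unequal group SDs of miR-122, so nothing about miR-122 is read from them. Exact permutation tests over arrays and pairs used scipy 1.17.1. Those of correlations used 100000 random permutations drawn with numpy 2.4.6. Named miRNAs followed a rule: the liver list, the 2 brightest of each other list, the 5 highest correlations with and without group means, and the neighbours in SD. Members, lists and tests were chosen with earlier results of these data known. Precision is limited by the number of arrays and, for miR-122, depends on the scale of low values.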

Additional observations from a re-analysis of the deposited data

Results flagged for a closer look

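With 24 group and probe combinations tested for a single lung far from the others of its group, 3 stood out, where chance flags about 1 in 20. Neither probe of miR-122 had such a lung in any group. miR-192 was highest in exposed replicate 20 of day 28, at a log2 signal of 5.44, with a gap of 0.872 of the range of the 5 lungs of that group. That lung also had the highest miR-122. miR-22 was lowest in exposed replicate 7 of day 1, at 10.96, with a gap of 0.712 of the range, and highest in exposed replicate 4 of day 3, at 11.25, with a gap of 0.911 of the range of 4 lungs.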

How the results depend on the processing

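No exposure change of miR-122 passed the threshold under any of the 18 settings run per day or without any single array, and the sign of these changes was not stable. At day 1 the change of 0.44 turned to -0.45 with normexp (median of all miRNAs -0.36), -0.36 with a floor of 10 and -0.019 with the series table. At day 3 the change of 0.38 turned to -0.11 with total gene signal, -0.23 with a floor of 10, -0.028 with the series table, -0.035 with the dimmer probe, -0.12 with slide as a fixed block, -0.23 with array weights and -0.18 as the mean of pairs within slides. At day 28 the change of 0.28 turned to -0.34 with no scaling (median of all miRNAs -0.65) and -0.094 with array weights. The difference of control day 28 over day 1, -0.036, was -1.004 and past the threshold with normexp (limma adjusted p = 0.0168). All tested miRNAs had a median of -0.63 there, and most were past the threshold too, as read from the small adjustment of p. The exact share called was not counted. The difference was 0.30 with quantile normalization and 0.70 with slide as a random block. The differences between days in the exposure change turned with normexp, to 0.51 (day 3 minus day 1), 0.99 (day 28 minus day 1) and 0.48 (day 28 minus day 3), and the last also with the random block, to 0.29. The causes were not tested. Leaving out 1 array gave ranges of -0.37 to 1.03, -0.47 to 1.19 and -0.44 to 0.72 for the exposure changes of days 1, 3 and 28, and of -1.27 to 0.26 and -0.85 to 0.55 for control day 3 and day 28 over day 1. For the differences between days the ranges were -0.91 to 0.76, -0.88 to 0.65 and -0.91 to 0.75, in the order above. The SD over all lungs was 0.73 with normexp, 1.30 with a floor of 10 and 0.49 in the series table, against 1.88 to 2.26 under 6 other settings. Arrays above background numbered 24 by at least 1 spot and 27 by the scanner software's own call. Normexp used the median spot signal. By replicate number, no paired analysis was possible because each number names 1 array in the whole series. Pairs were formed by slide and day alone. Signals near background limit what 12 of the 33 arrays can show.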

Other observations

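miR-139-3p, the next in order of SD after miR-122, at 1.87, had r = -0.030 with miR-122 over 33 arrays. The striated muscle miRNAs miR-1, miR-133b and miR-133a followed, with SDs of 1.46, 1.37 and 1.36 and r = -0.065, -0.034 and -0.034 with miR-122.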
